A study of Mus musculus with 20 samples.

Results

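The Notch pathway was followed through 10 genes in whole mouse ovaries around birth. They are the ligand genes Jag1 and Jag2, the receptor genes Notch1, Notch2 and Notch3, the fringe gene Lfng, and the target genes Heyl, Hey1, Hey2 and Hes1. The genes were chosen by symbol, with earlier results of these data known. They were taken as ligands held by oocytes and as receptors and targets held by somatic cells. All 10 of 10 were found among the 49585 genes counted in each library. RNA-seq libraries of B6D2F1 ovaries fell into 6 groups: Figla KO (Figla-/-) and Figla control at embryonic day 18.5 (E18.5), the same genotypes on the day of birth (P0), and Lhx8 KO (Lhx8-/-) and Lhx8 control at P0. FIGLA and LHX8 are transcription factors of oocytes, and the study followed the genes that depend on them as oocytes grow. The genotype labels call the controls heterozygous (Figla+/- or Lhx8+/-), while the library names of the Lhx8 set call its controls wild type. The labels name no Cre or transgene. Nothing in them ties a library to an animal or litter of its own, and the p-values here cover no more than the scatter of these samples, part of which may be technical.

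Notch signalling passes between cells in contact. A Jagged or Delta ligand on one cell binds a Notch receptor on its neighbour, the receptor is cut by ADAM proteases and then by the gamma-secretase complex, and the released part enters the nucleus, where with RBPJ and Mastermind proteins it turns on genes such as those of the Hes and Hey families. In the mouse ovary around birth the pathway is known for its part in breaking down the nests of germ cells into primordial follicles, with Jagged ligands on oocytes and Notch2 on pregranulosa cells. NOTCH1 is best known in endothelium and NOTCH3 in the mural cells of vessels.

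Libraries were grouped by library name, because titles and library names disagreed for 6 of 14 Figla libraries and for 6 of 6 Lhx8 libraries. Figla itself had 0.18, 0.64 and 0.30 CPM (counts scaled to a common library size, with TMM factors) in P0 Figla KO ovaries, against 32.8, 36.8 and 41.4 CPM in P0 Figla control ovaries. Lhx8 had 17.0, 30.5 and 23.7 CPM in the libraries named Lhx8 KO, against 93.9, 102.9 and 90.4 CPM in those named control, and every direction in the Lhx8 set rests on those names, since the titles would turn each sign. At E18.5 Figla had 0.83, 1.26 and 1.53 CPM in Figla KO ovaries, against 21.9, 3.78 and 26.7 CPM in Figla control ovaries, where replicate 3 was low. Replicates 1 and 2 of each E18.5 group were close to identical and were summed to 1 sample, written 1-2, which leaves 3 samples in every group. The 14 Figla libraries held 5583392 to 13408022 counts each and were made from whole transcripts with a Nextera kit. The 6 Lhx8 libraries held 8297204 to 9978350 counts and were made with a 3′ end kit (QuantSeq).

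The sample that holds E18.5 replicates 1-2 stood apart from all others in both genotypes. Fos, an immediate early gene, had 938 CPM in the Figla KO sample 1-2 and 446 CPM in the Figla control sample 1-2, against 2.04 to 3.77 CPM in the other E18.5 samples. The heat shock gene Hspa1a had 399 CPM in Figla KO 1-2 and 173 CPM in Figla control 1-2, against 1.40 to 2.13 CPM in the others. Both genes were chosen after their values were seen. E18.5 log2 fold changes of Jag1, Jag2, Heyl, Hes1, Notch2 and Hey1 are therefore given with and without these samples. For Notch1, Notch3, Hey2 and Lfng no E18.5 effect without both of them is given.

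Markers of the ovary's cell types moved with the groups. The 13 oocyte markers summed to 554 to 663 CPM in P0 Figla KO ovaries, against 1786 to 2701 CPM in P0 Figla control ovaries, with 13 of 13 lower past the threshold and the zona genes Zp1, Zp2 and Zp3 at 0 in every Figla KO sample. They summed to 665 to 1195 CPM in Lhx8 KO ovaries, against 1638 to 2022 CPM in Lhx8 control ovaries, with 10 of 13 lower. This list holds Figla and Lhx8 themselves, and the fall of the deleted gene in its own knockout is no measure of oocyte content. Which of its other genes depend on FIGLA or LHX8 was not tested, so the sums do not measure oocyte content alone. Log2 fold changes of the oocyte markers ranged from -13.1 to -0.44 in P0 Figla KO ovaries and from -9.22 to -0.14 in Lhx8 KO ovaries. Pregranulosa markers summed to 3124 to 3639 CPM in P0 Figla KO ovaries and 2076 to 2735 CPM in P0 Figla control ovaries (2 of 12 higher), and to 2085 to 2293 CPM in Lhx8 KO ovaries and 1702 to 1872 CPM in Lhx8 control ovaries (3 of 11 tested higher). Stromal markers were higher past the threshold for 5 of 8 genes in each P0 knockout. Of 6 genes each, surface epithelium, macrophage and erythroid markers gave 0, 1 and 0 higher calls in P0 Figla KO ovaries and 1, 0 and 0 in Lhx8 KO ovaries, and none lower. Only 4 of the 6 erythroid markers were tested in the Lhx8 set. There 3 were higher at an unadjusted p under 0.05 by edgeR (median log2 fold change 0.85). Erythroid sums were 4930 to 11876 CPM in Lhx8 KO ovaries and 4149 to 6423 CPM in Lhx8 control ovaries. In whole ovaries, fewer cells of a type and less RNA per cell cannot be told apart.

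Both ligand genes fell at birth in both knockouts. Jag2 was 7.18-fold lower in P0 Figla KO ovaries and 6.03-fold lower in Lhx8 KO ovaries than in their controls, and Jag1 was 2.83-fold and 2.02-fold lower. Of the receptor genes among the members Notch3 alone passed the threshold, as higher in P0 Figla KO ovaries. Of the target genes among them Heyl alone did, as lower in Lhx8 KO ovaries. Notch2, the most abundant of the receptor transcripts, passed the threshold in neither knockout. Outside the members, the receptor gene Notch4 was called higher in P0 Figla KO ovaries and the target gene Hes5 in Lhx8 KO ovaries. At E18.5 no member passed the threshold, where edgeR called 1 of 16131 genes and none of the 10 oocyte markers tested. A missing call at that age is no evidence of an unchanged level.

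The 300 bases around the starts of the ligand genes are shown because these genes fell together in ovaries that lack either transcription factor. FIGLA belongs to the basic helix-loop-helix family, whose members bind E-boxes (CANNTG), and capitals mark the E-box letters. The windows run 5′ to 3′ from 250 bases before to 50 bases from the start, as RefSeq annotates it on GRCm38.p6, and lie at chr2:137116471-137116770 for Jag1 and chr12:112929446-112929745 for Jag2, both on the minus strand.
Jag1: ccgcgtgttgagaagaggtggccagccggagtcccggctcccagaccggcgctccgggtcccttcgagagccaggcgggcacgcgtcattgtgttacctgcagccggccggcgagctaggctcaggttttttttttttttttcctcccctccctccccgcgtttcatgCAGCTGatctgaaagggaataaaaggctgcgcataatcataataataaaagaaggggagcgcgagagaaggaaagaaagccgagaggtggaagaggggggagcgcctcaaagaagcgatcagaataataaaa
Jag2: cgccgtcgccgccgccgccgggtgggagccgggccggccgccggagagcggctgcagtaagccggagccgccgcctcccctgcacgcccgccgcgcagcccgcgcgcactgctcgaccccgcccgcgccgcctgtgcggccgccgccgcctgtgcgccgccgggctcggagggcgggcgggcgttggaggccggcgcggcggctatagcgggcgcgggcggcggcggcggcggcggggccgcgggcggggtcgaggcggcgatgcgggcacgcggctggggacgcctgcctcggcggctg
Jag1 held 1 E-box, CAGCTG, whose first base lies at position -82 from the RefSeq start, and Jag2 held none in a window of 86.0% G and C. The Jag1 gene as counted reaches further upstream, to 137116644, so this E-box lies within its bounds. CANNTG occurred in 72.3% of all 32851 promoters of the table, so most genes held one. The palindrome TAATTA, a core that LIM-homeodomain proteins such as LHX8 bind, occurred in 5.29% of all promoters and in none of the 7 members with an entry (Jag1, Jag2, Notch1, Notch2, Notch3, Hey2 and Lfng). Heyl, Hey1 and Hes1 had no entry. Both strands were searched, CAGGTG and CACGTG are themselves forms of CANNTG, and a match is a run of letters, not a shown binding site.

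Jag2 (ENSMUSG00000002799, GRCm38 chr12:112908590-112929495, minus strand) encodes a Jagged ligand that spans the membrane. It had 45.8, 39.0 and 39.7 CPM in P0 Figla KO ovaries, against 300.1, 287 and 308 CPM in P0 Figla control ovaries. The groups lay far apart, and each was tight. The log2 fold change was -2.84 (SE 0.106, 95% interval -3.08 to -2.61, adjusted p = 2.27e-07 by edgeR's quasi-likelihood test with Benjamini-Hochberg adjustment). In the Lhx8 set Jag2 had 4.39, 5.11 and 4.09 CPM in Lhx8 KO ovaries, against 25.3, 33.2 and 23.8 CPM in Lhx8 control ovaries. Again every KO sample lay below every control sample, with a log2 fold change of -2.59 (SE 0.219, edgeR adjusted p = 8.18e-05). Jag2 was past the threshold under every alternative tried in the Lhx8 set, and in the Figla set under all but grouping by title (log2 fold change -0.71, adjusted p = 1), under which no gene was called.

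Jag1 (ENSMUSG00000027276, GRCm38 chr2:137081456-137116644, minus strand) encodes the other Jagged ligand. It had 21.5, 21.9 and 23.1 CPM in P0 Figla KO ovaries, against 45.4, 59.6 and 83.5 CPM in P0 Figla control ovaries. The KO samples were nearly equal and the controls spread over a wide range, without overlap. The log2 fold change was -1.50 (SE 0.196, 95% interval -1.93 to -1.07, edgeR adjusted p = 0.000565). In the Lhx8 set Jag1 had 10.3, 5.21 and 7.81 CPM in Lhx8 KO ovaries, against 12.2, 17.4 and 17.5 CPM in Lhx8 control ovaries. These groups lay close at their edges but did not overlap, with a log2 fold change of -1.01 (SE 0.281, edgeR adjusted p = 0.0468). This call was lost on leaving out any 1 sample except KO replicate 1, with adjusted p from 0.0189 without that sample to 0.162 without control replicate 2, while the log2 fold change stayed between -1.28 and -0.80. Oocyte markers, as given above, were lower in the same ovaries, and their part in the fall of the ligand genes was not tested.

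**Figure D1:**
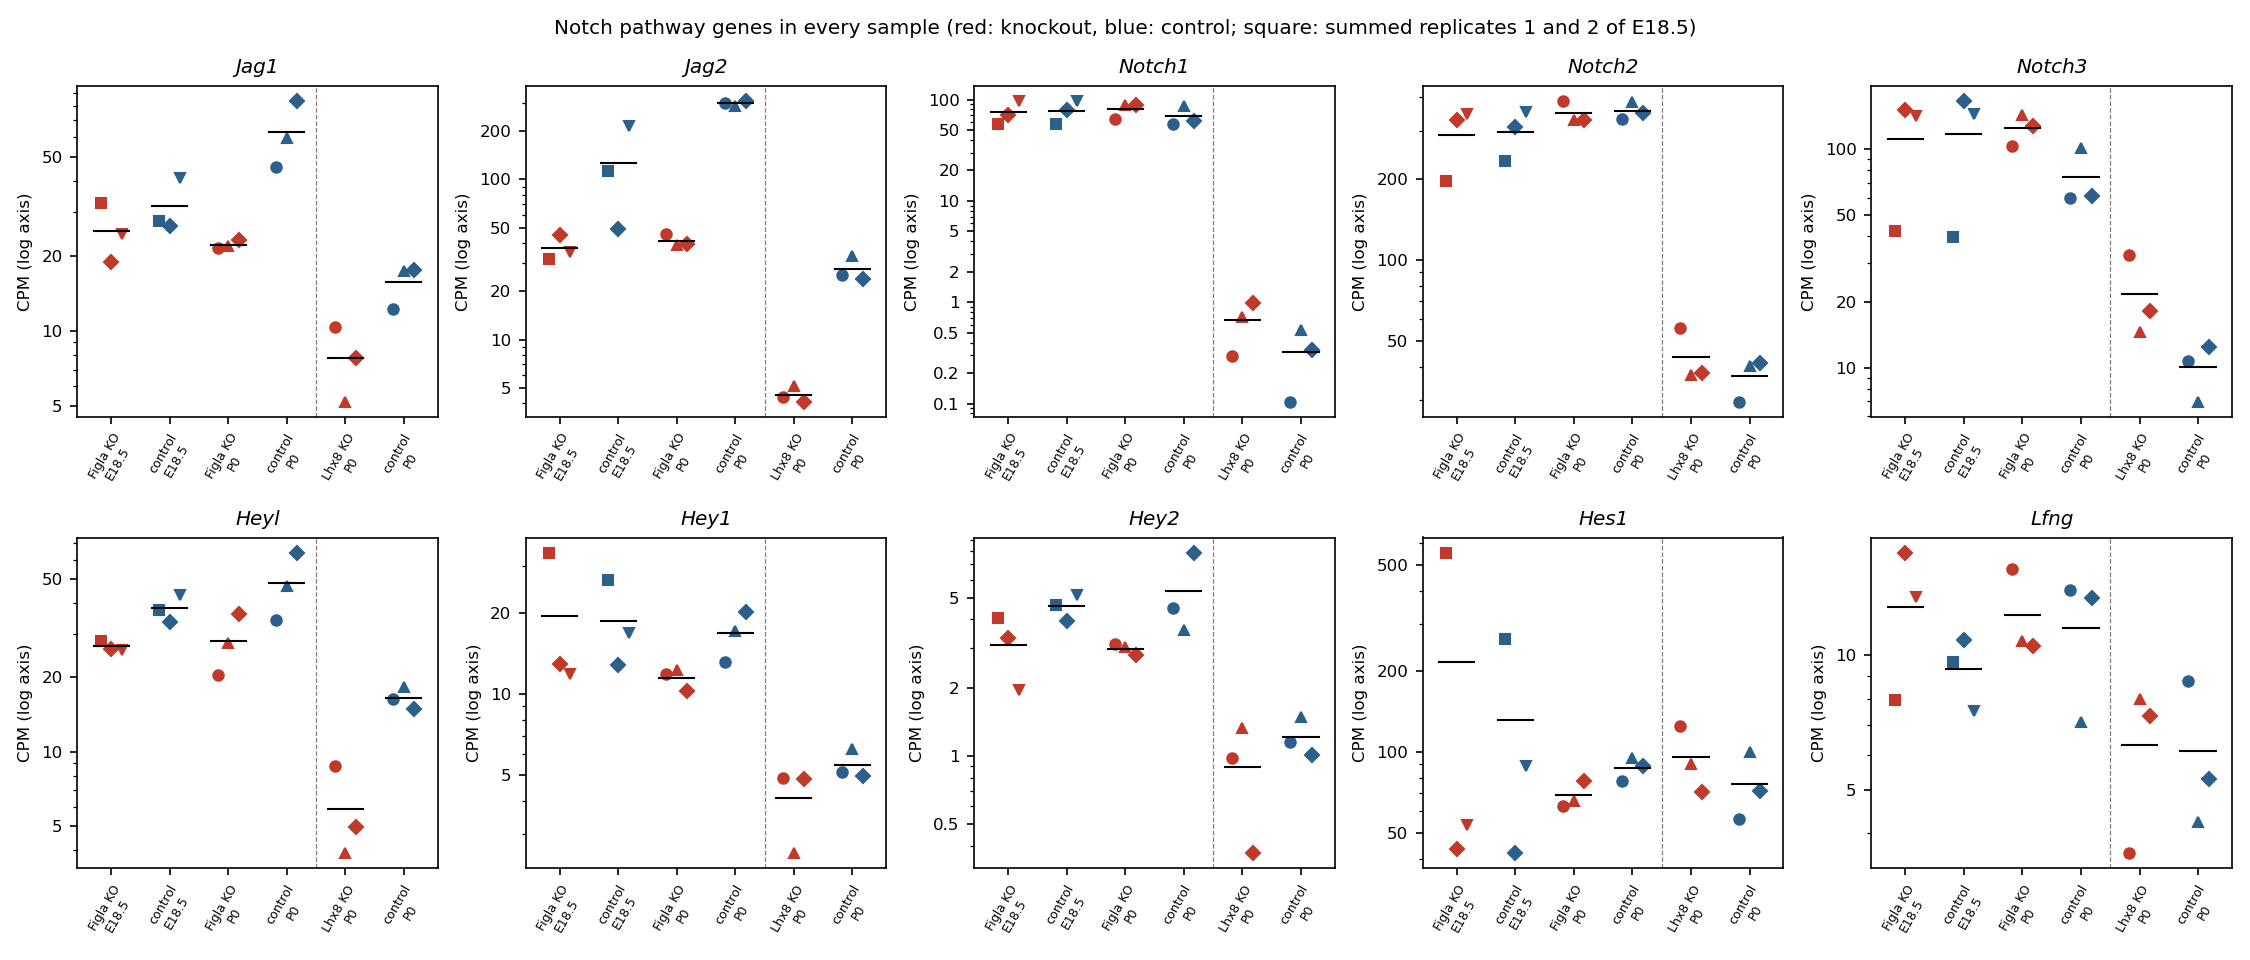
Level of each of the 10 genes in every sample, as CPM on a log axis, with KO ovaries left of their controls at each age and in each set. Points are samples (3 per group, E18.5 replicates 1-2 summed) and bars are group means. Jag2 and Jag1 lie lower in every P0 KO sample than in any control of the same set, and Hes1, Notch3 and Hey1 show 1 sample per E18.5 group that stands apart.

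Among the receptors, Notch3 (ENSMUSG00000038146, GRCm38 chr17:32120820-32166880, minus strand) had 103.8, 143 and 127 CPM in P0 Figla KO ovaries, against 60.1, 101.7 and 61.1 CPM in P0 Figla control ovaries. The highest control fell just short of the lowest KO sample. The log2 fold change was 0.75 (SE 0.201, edgeR adjusted p = 0.0291). It was no longer past the threshold without control replicate 1, KO replicate 2, control replicate 3 or KO replicate 3 (adjusted p from 0.0788 to 0.113), in libraries with agreeing labels (0.0611) or in 1 model of all Figla samples (0.412). In Lhx8 KO ovaries Notch3 had 32.7, 14.6 and 18.1 CPM, against 10.8, 6.98 and 12.5 CPM in Lhx8 control ovaries. The groups did not overlap, but the log2 fold change of 1.12 (SE 0.324) missed the threshold with an adjusted p of 0.0546 by edgeR and passed it by DESeq2 (0.00932), without the filter on low counts (0.000362) and without KO replicate 2 (0.0358). Mural markers summed to 390 to 494 CPM in P0 Figla KO ovaries and 293 to 353 CPM in P0 Figla control ovaries, with 3 of 9 higher past the threshold, and to 262 to 297 CPM in Lhx8 KO ovaries and 179 to 258 CPM in Lhx8 control ovaries, with 0 of 9 past it. Endothelial markers summed to 508 to 606 CPM in P0 Figla KO ovaries and 317 to 453 CPM in P0 Figla control ovaries (4 of 10 higher), and to 518 to 606 CPM in Lhx8 KO ovaries and 489 to 530 CPM in Lhx8 control ovaries (0 of 10). The part of these cells in the Notch3 result was not tested. Notch3 shares 488 bases of exon with the antisense gene Gm17276, whose reads cannot be told apart from its own because strand was ignored, although all 20 libraries together gave that gene 108 counts.

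Notch2 (ENSMUSG00000027878, GRCm38 chr3:98013527-98150361, plus strand), the receptor of pregranulosa cells, had 388, 329 and 329 CPM in P0 Figla KO ovaries, against 333, 385 and 349 CPM in P0 Figla control ovaries. The samples of both groups were mixed, and the log2 fold change of -0.03 had a 95% interval of -0.26 to 0.21. In the Lhx8 set Notch2 had 55.7, 37.3 and 37.8 CPM in Lhx8 KO ovaries, against 29.7, 40.4 and 41.2 CPM in Lhx8 control ovaries, again overlapping, with a log2 fold change of 0.24 (95% interval -0.21 to 0.68). Notch1 (ENSMUSG00000026923, GRCm38 chr2:26457903-26516663, minus strand), the endothelial receptor, had 63.7, 88.1 and 87.6 CPM in P0 Figla KO ovaries, against 57.5, 87.2 and 61.0 CPM in P0 Figla control ovaries. These groups overlapped too, with a log2 fold change of 0.22 (95% interval -0.17 to 0.62). In the Lhx8 libraries Notch1 gave 3, 7 and 8 counts in Lhx8 KO ovaries, against 1, 5 and 3 counts in Lhx8 control ovaries, and it was not tested there. Lfng (ENSMUSG00000029570, GRCm38 chr5:140607320-140615545, plus strand), which encodes a glycosyltransferase that tunes which ligand a Notch receptor answers to, had 15.6, 10.7 and 10.5 CPM in P0 Figla KO ovaries, against 14.0, 7.11 and 13.4 CPM in P0 Figla control ovaries. Its log2 fold changes were 0.09 (95% interval -0.51 to 0.69) in P0 Figla KO ovaries and 0.04 (95% interval -0.81 to 0.89) in Lhx8 KO ovaries. Its sign turned on leaving out single samples in both sets. Notch1 shares 1068 bases of exon with the antisense gene 0610009E02Rik and 414 with antisense Gm13568, and Notch2 shares 541 with Gm42820 on its own strand, and reads from shared bases cannot be told apart by gene. All 20 libraries together gave those genes 93, 5 and 522 counts, in that order.

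The targets encode basic helix-loop-helix repressors. Heyl (ENSMUSG00000032744, GRCm38 chr4:123233556-123249875, plus strand) had 8.78, 3.88 and 4.96 CPM in Lhx8 KO ovaries, against 16.3, 18.3 and 14.96 CPM in Lhx8 control ovaries. Its highest KO sample lay well below the lowest control, and the log2 fold change was -1.48 (SE 0.298, edgeR adjusted p = 0.0123), a call lost without control replicate 2 (0.0636). In P0 Figla KO ovaries Heyl had 20.4, 27.6 and 36.1 CPM, against 34.0, 46.8 and 64.1 CPM in P0 Figla control ovaries. Here the groups overlapped, and the log2 fold change of -0.78 (SE 0.242) just missed the threshold (edgeR adjusted p = 0.0512), which it passed by DESeq2 (0.0094), without the filter on low counts (6.06e-06), without control replicate 1 (0.0163) and without KO replicate 3 (0.0467). Beside this, Heyl was lower in both P0 knockouts, past the threshold in Lhx8 KO ovaries only. Mural sums, as given above, were higher in every KO sample than in any control of the same set. Endothelial sums were so in the Figla set and overlapped in the Lhx8 set. Median log2 fold changes in P0 Figla and Lhx8 KO ovaries were 0.50 and 0.36 for mural markers, and 0.53 and 0.40 for endothelial markers. None of those markers passed the threshold in Lhx8 KO ovaries. The part of mural and endothelial cells in the Heyl values was not tested.

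Hey1 (ENSMUSG00000040289, GRCm38 chr3:8663359-8667256, minus strand) had 11.9, 12.3 and 10.3 CPM in P0 Figla KO ovaries, against 13.2, 17.2 and 20.2 CPM in P0 Figla control ovaries. Hey2 (ENSMUSG00000019789, GRCm38 chr10:30832359-30842801, minus strand) had 3.10, 3.03 and 2.80 CPM in P0 Figla KO ovaries, against 4.50, 3.60 and 7.90 CPM in P0 Figla control ovaries. Hes1 (ENSMUSG00000022528, GRCm38 chr16:30064384-30067796, plus strand) had 62.9, 65.7 and 77.8 CPM in P0 Figla KO ovaries, against 77.8, 94.6 and 88.3 CPM in P0 Figla control ovaries. Each of these targets lay below its controls in all samples, Hes1 only by a margin lost in rounding, yet none passed the threshold by edgeR. The log2 fold changes were -0.55 for Hey1 (SE 0.190, adjusted p = 0.0751), -0.84 for Hey2 (SE 0.323, adjusted p = 0.105) and -0.34 for Hes1 (SE 0.121, adjusted p = 0.0870). Hey1 passed without control replicate 1 (0.0291). In Lhx8 KO ovaries the log2 fold changes were -0.41 for Hey1 (SE 0.335), -0.42 for Hey2 (SE 0.540) and 0.33 for Hes1 (SE 0.244), with edgeR adjusted p from 0.405 to 0.660. Hes1 was thus lower in Figla KO ovaries and higher in Lhx8 KO ovaries by values that missed the threshold in each, with a difference of the effects of -0.66 (SE 0.30, edgeR adjusted p = 0.608).

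Over the 10 genes, edgeR called 1 higher and 2 lower in P0 Figla KO ovaries, where 16.0% of the 17321 genes tested were called (5.12% higher, 10.9% lower). Groups did not overlap for 6 of 10, against 35.6% of all genes. In Lhx8 KO ovaries 0 were called higher and 3 lower of 9 tested, where 10.4% of 15274 genes were called (3.06% higher, 7.29% lower), and groups did not overlap for 5 of 9, against 33.7% of all genes. The median log2 fold change of the members was -0.44 in P0 Figla KO ovaries, with 0.02 over all genes tested, and -0.41 in Lhx8 KO ovaries, with 0.05 over all genes. Because the members were chosen with earlier results of these data known, these contrasts with all genes are a description and no test. The Figla effect minus the Lhx8 effect at P0, tested in 1 model of 12 libraries, passed the threshold for no member, where 0.409% of 18336 genes did. That difference was -0.24 for Jag2 (95% interval -0.71 to 0.23), -0.48 for Jag1 (95% interval -1.24 to 0.28), -0.36 for Notch3 (95% interval -1.21 to 0.50) and 0.71 for Heyl (95% interval -0.17 to 1.58). The kits differ between the sets, and the contrast cancels this only where a gene is counted in proportion by both.

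**Figure D2:**
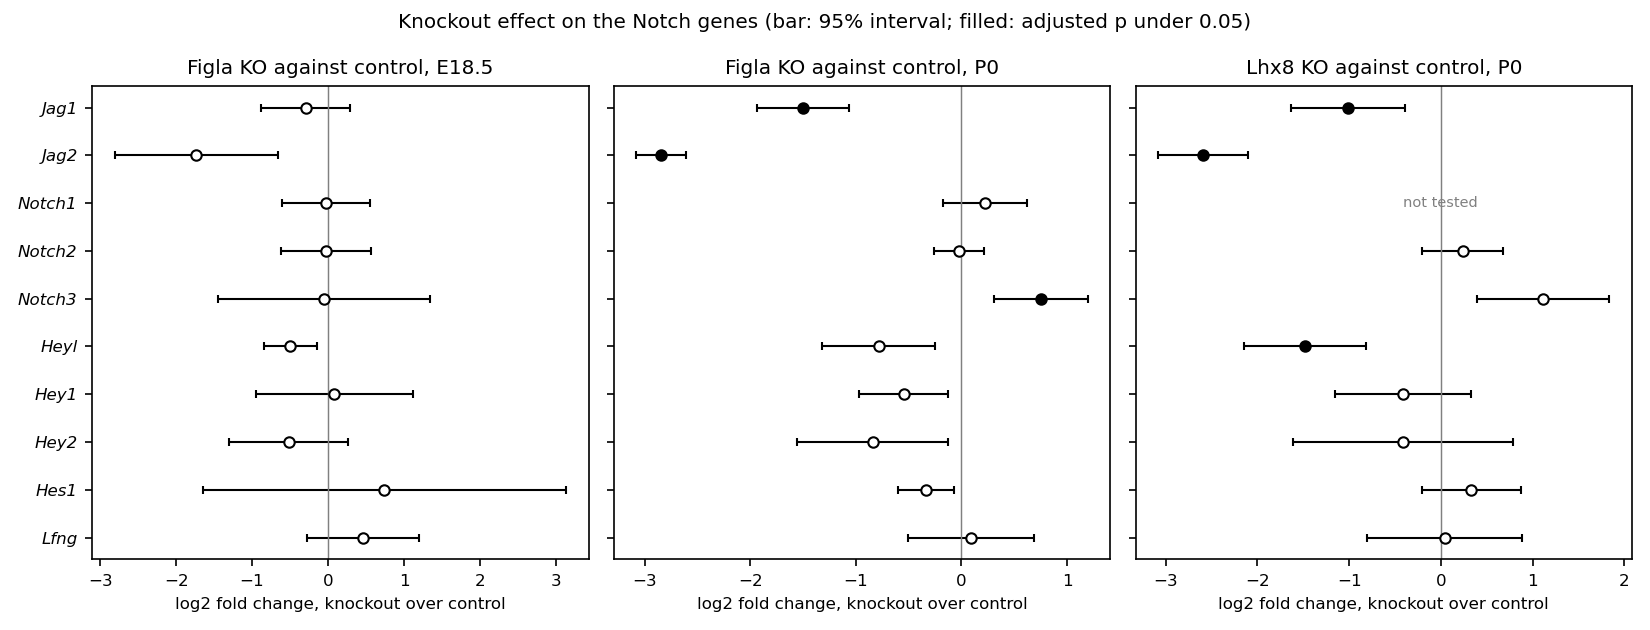
Log2 fold change of each gene, KO over control, with 95% intervals, in P0 Figla, E18.5 Figla and P0 Lhx8 ovaries. Filled points passed an adjusted p of 0.05 in edgeR and open points did not, and Notch1 was not tested in the Lhx8 set. The Jag2 intervals of both P0 comparisons lie wholly below -2, and those of Notch2 span 0.

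Per length of all annotated exons of a gene, the order of the genes at P0 differed between the genotypes. This length can exceed that of a single transcript, as it may for Notch1 (14232 bases), which would lower its place. In P0 Figla KO ovaries Hes1 (33.8 ± 3.9 RPKM, SD, n = 3) and Notch2 (32.3 ± 3.14 RPKM) were highest and overlapped, followed by Notch3 (15.5 ± 2.47 RPKM) and Jag2 (10.2 ± 0.923 RPKM). Notch1, Heyl, Lfng, Jag1 and Hey1 followed at 5.61, 5.49, 4.91, 3.81 and 3.52 RPKM, and Hey2 was last at 0.648 RPKM. In P0 Figla control ovaries Jag2 was the highest (73.6 ± 2.67 RPKM, SD, n = 3), above Hes1 (42.7 ± 4.15 RPKM) and Notch2 (33.0 ± 2.45 RPKM), and these levels did not overlap. Jag1 (10.8 ± 3.31 RPKM), Heyl (9.45 ± 2.95 RPKM) and Notch3 (9.24 ± 2.95 RPKM) could not be ordered beyond their spread, nor could Hey1, Notch1 and Lfng (5.15, 4.82 and 4.60 RPKM), and Hey2 was last at 1.16 RPKM. In the control ovaries Jag2 thus stood first of the 10 genes, and in the KO ovaries it stood behind Hes1, Notch2 and Notch3.

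**Figure D3:**
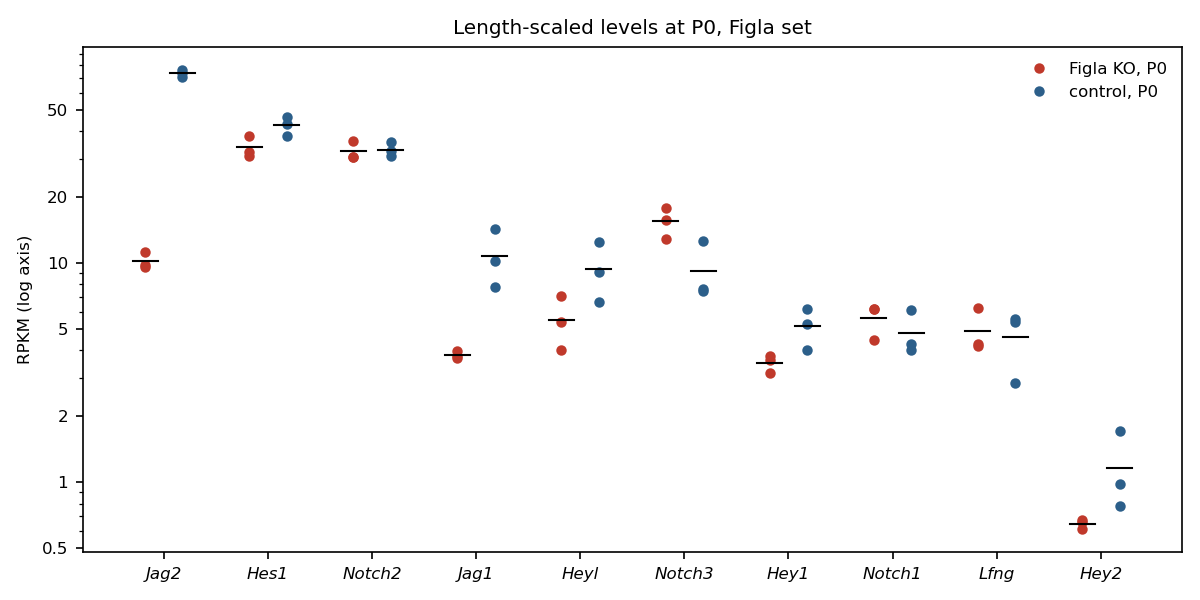
Level per kilobase of annotated exon (RPKM, log axis) of the 10 genes in P0 Figla KO and control ovaries, ordered by the control mean. Points are samples and bars are means of 3. Jag2 is first among controls at 70.8 to 76.1 RPKM and sits at 9.62 to 11.3 RPKM in KO ovaries.

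Before birth neither ligand gene passed the threshold. At E18.5 Jag2 had 31.9, 45.1 and 35.2 CPM in Figla KO ovaries, against 112, 49.3 and 217 CPM in Figla control ovaries. The groups did not overlap, but control replicate 3, in which Figla and Lhx8 (6.18 CPM) were also low, lay close to the KO samples. Lhx8 was low in KO replicate 3 as well (6.61 CPM, against 17.8 and 43.9 CPM in the other KO samples). The log2 fold change of Jag2 was -1.73 (SE 0.463, unadjusted p = 0.00609, edgeR adjusted p = 0.984), and it was -2.11 without control replicate 3 (adjusted p = 0.0511). DESeq2 (0.0196) and no filter on low counts (0.00449) put it past the threshold. Libraries with agreeing labels did so too (0.00191), but at E18.5 they leave KO replicates 3 and 4 against the lone control sample 1-2, assumed to vary like the KO samples, so that genotype and the samples that stand apart cannot be told apart there. Jag1 had 32.5, 18.9 and 24.4 CPM in Figla KO ovaries, against 27.5, 26.3 and 41.0 CPM in Figla control ovaries, which overlapped, with a log2 fold change of -0.29 (95% interval -0.88 to 0.30). Heyl had 28.2, 26.1 and 25.9 CPM in Figla KO ovaries, against 37.6, 33.7 and 43.3 CPM in Figla control ovaries, without overlap (log2 fold change -0.50, SE 0.151, edgeR adjusted p = 1). At this age edgeR called 1 of 16131 genes (0.0062%), with 607 at an unadjusted p under 0.05, and groups did not overlap for 2 of the 10 members, against 7.45% of all genes. The oocyte markers summed to 368 to 440 CPM in E18.5 Figla KO ovaries and 377 to 1375 CPM in E18.5 Figla control ovaries. Erythroid markers summed to 944 to 1694 CPM in E18.5 Figla KO ovaries and 579 to 794 CPM in E18.5 Figla control ovaries, with none past the threshold and 6 of 6 higher at an unadjusted p under 0.05 (median log2 fold change 1.11). Pregranulosa markers summed to 2892 to 3349 CPM in E18.5 Figla KO ovaries and 2587 to 2885 CPM in E18.5 Figla control ovaries, with none past the threshold. The sums of the endothelial, mural, stromal, surface epithelium and macrophage lists overlapped between the E18.5 groups, and the part of any of these cells in the E18.5 values was not tested.

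Of the other members, the E18.5 log2 fold changes were -0.03 for Notch1 (95% interval -0.61 to 0.55), -0.02 for Notch2 (95% interval -0.61 to 0.57), -0.52 for Hey2 (95% interval -1.30 to 0.26) and 0.46 for Lfng (95% interval -0.28 to 1.19). Their groups overlapped in every case. Notch1 had 57.1, 71.1 and 96.5 CPM in E18.5 Figla KO ovaries, against 57.0, 78.0 and 96.6 CPM in Figla control ovaries (samples 1-2, 3 and 4). Notch2 also rose in that order in both groups, while Hey2 and Lfng did not. The fit treats the samples as unpaired, and whether they belong together by number was not tested. Without the samples 1-2, the E18.5 log2 fold changes were -1.71 for Jag2, -0.62 for Jag1 and -0.55 for Heyl, none past the threshold. Hes1 rested on those samples: it had 554, 43.4 and 53.6 CPM in E18.5 Figla KO ovaries (samples 1-2, 3 and 4), against 264, 41.9 and 88.4 CPM in E18.5 Figla control ovaries. The samples 1-2 of both genotypes were the highest of the whole set. The log2 fold change of Hes1 was 0.74 (SE 1.03) with them and -0.41 without them. Notch3 was low in the same samples, with 42.3, 150.7 and 142.6 CPM in Figla KO ovaries, against 39.7, 166.5 and 144.8 CPM in Figla control ovaries. Hey1 was high in them, with 33.7, 12.9 and 11.9 CPM in Figla KO ovaries, against 26.5, 12.9 and 16.9 CPM in Figla control ovaries. The log2 fold changes were -0.05 (SE 0.599) for Notch3 and 0.08 (SE 0.445) for Hey1. In these samples Fos and Hspa1a were also high, as given above, and their part in the Hes1, Hey1 and Notch3 levels was not tested.

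**Figure D4:**
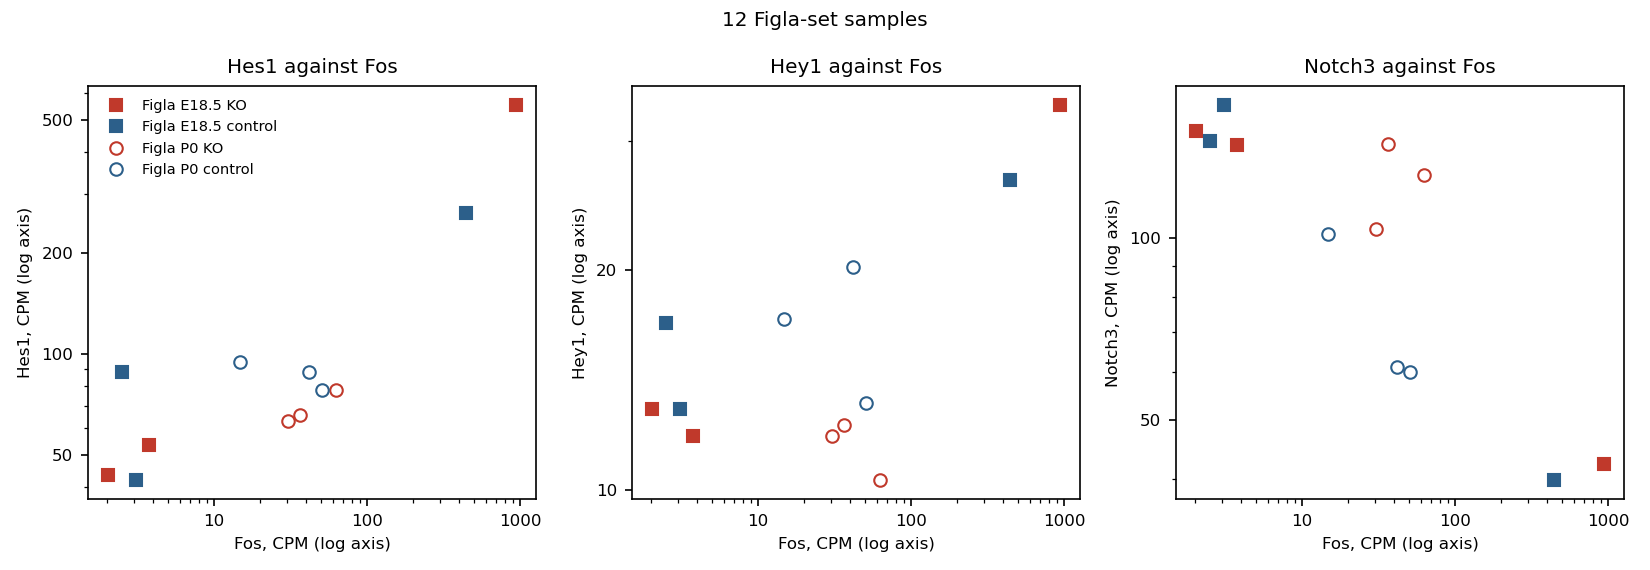
Levels of Hes1, Hey1 and Notch3 against Fos (CPM, log axes) in the 12 Figla-set samples, 1 point each. The E18.5 samples 1-2 of both genotypes sit alone at 938 (KO) and 446 (control) CPM of Fos, with Hes1 at 554 and 264 CPM, and the 10 other samples have Fos at 2.04 to 63.2 CPM and Hes1 at 41.9 to 94.6 CPM.

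Both ligand genes were higher at P0 than at E18.5 in Figla control ovaries, by values that missed the threshold, and neither was called in Figla KO ovaries. P0 against E18.5, Jag1 had a log2 fold change of -0.20 (95% interval -0.74 to 0.34) in Figla KO ovaries and 0.99 (95% interval 0.46 to 1.53, edgeR adjusted p = 0.0626) in Figla control ovaries. Jag2 had 0.16 (95% interval -0.64 to 0.95) in Figla KO ovaries and 1.24 (95% interval 0.46 to 2.02, edgeR adjusted p = 0.0825) in Figla control ovaries. edgeR called 1 of 18379 genes (0.00544%) between the ages in Figla KO ovaries and 0 in Figla control ovaries, where 4254 had an unadjusted p under 0.05. In Figla control ovaries DESeq2 put Jag1 (0.0046) and Jag2 (0.00773) past the threshold, among 1616 genes, as did leaving out E18.5 control replicate 4 (0.0381 and 0.0188) and using no filter on low counts (0.00167 and 0.00025). The Figla effect at P0 minus that at E18.5 was -1.19 for Jag1 (SE 0.352, unadjusted p = 0.00498) and -1.08 for Jag2 (SE 0.511), each with an edgeR adjusted p of 0.913. No gene of 18379 passed in that test by edgeR, 977 had an unadjusted p under 0.05, and DESeq2 called 3. The E18.5 control samples, of which replicate 3 had low Figla and Lhx8, enter both the age comparison and this difference.

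Of 42 other genes of the pathway, 39 could be tested in P0 Figla ovaries, where 5 rose and 3 fell. All genes tested there had 5.12% called higher and 10.9% called lower. In both directions together the list's calls, 8 of 39, lie near the 16.0% called in all. By direction the list leaned to higher calls, while all genes leaned to lower ones. The genes that rose were Notch4 (log2 fold change 0.94, SE 0.287, adjusted p = 0.0486), an endothelial receptor, Dlk1 (0.61, SE 0.0886, adjusted p = 0.0011), a non-canonical ligand, and Numbl (0.40, SE 0.100), a relative of the Notch antagonist Numb. Pofut1 (0.39) and Poglut1 (0.38), which add fucose and glucose to the receptors, also rose. Those that fell were Dtx2 (-0.95, SE 0.112, adjusted p = 0.000307), a Deltex ubiquitin ligase, Psen2 (-0.53, SE 0.128), a catalytic subunit of gamma-secretase, and Fbxw7 (-0.53, SE 0.103), which marks the cleaved receptor for degradation. In Lhx8 KO ovaries 38 were tested, and 3 rose and 2 fell, together likewise near the 10.4% of all genes called there. Over all genes there, 3.06% were called higher and 7.29% lower. Dlk1 (0.58, SE 0.149), Numbl (0.57, SE 0.152) and the target gene Hes5 (2.29, SE 0.440) rose, and Dtx2 (-0.90, SE 0.18) and Psen2 (-0.64, SE 0.126) fell, with edgeR adjusted p from 0.00953 to 0.0415. Hes5 was low throughout, at 4.0, 4.70 and 2.48 CPM in Lhx8 KO ovaries, against 0.63, 0.85 and 0.79 CPM in Lhx8 control ovaries.

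Dtx2, picked after its values were seen, had the largest change of the genes called in this list in P0 Figla KO ovaries. It had 66.7, 67.0 and 64.6 CPM in P0 Figla KO ovaries, against 114.6, 123.6 and 145.6 CPM in P0 Figla control ovaries, and 37.6, 37.7 and 34.9 CPM in Lhx8 KO ovaries, against 58.0, 89.0 and 59.3 CPM in Lhx8 control ovaries. In neither set did the groups overlap. RBPJ, the DNA-binding partner of all Notch receptors, had its gene Rbpj at 63.2 ± 3.18 CPM in P0 Figla KO ovaries and 62.8 ± 8.0 CPM in P0 Figla control ovaries (SD, n = 3 each). The median log2 fold change of the 42-gene list was 0.21 in P0 Figla KO ovaries and 0.18 in Lhx8 KO ovaries over the genes tested. At E18.5 38 were tested and 0 were called.

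The genes most like the ligand genes were sought by Pearson correlation of log2(CPM + 1) over the 12 Figla-set samples, among the genes tested in the model of all these samples. For Jag2 they were Fam160a1 (0.996), Arhgef16 (0.993), Ttn (0.992), Gm15544 (0.991) and Izumo1r (0.99), the last of which encodes JUNO, the egg's receptor for sperm. For Jag1 they were Nrbp1 (0.972), Herc3 (0.969), Kcmf1 (0.969), Astl (0.967), which encodes the oocyte protease ovastacin, and Fbxo40 (0.967). These 12 points share their libraries and their split into KO and control ovaries, so the values describe likeness across this set alone.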

How the data were processed

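Polyadenylated RNA of whole ovaries was sequenced in 20 libraries. The authors deposited raw read counts per gene, and per the file headers these were made by featureCounts 1.6.0, ignoring strand, against the GENCODE M12 annotation. The submitters' processing notes name cutadapt, HISAT2 and the build GRCm38.p5. Of the first 2 tools the version is not given in the sources used here. Samples were grouped by library name. E18.5 replicates 1 and 2 differed by a chi-square per degree of freedom of 1.32 in Figla KO and 1.12 in Figla control ovaries, against 6.62 to 62.3 for other pairs, and were summed. Counts were tested with edgeR 4.0.16 in R 4.3.3 (filterByExpr with a minimum count of 10 and a total of 15, TMM scaling, quasi-likelihood test, Benjamini-Hochberg adjustment over all genes tested, threshold 0.05), each knockout in a model of its own, and the differences between effects and ages in joint models. DESeq2 1.42.0, RLE scaling, no filter, left-out samples and other groupings were alternatives. CPM and RPKM were computed from the counts, RPKM with the deposited exon lengths and for the Figla set only. The main edgeR fit and DESeq2 were run on simulated counts for each knockout against its control and for the differences between effects. The age comparisons and the other alternatives were not simulated. No molecular identifiers are recorded, so the floor of 3 counts covers counting error only.

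The members, the list of 42 other Notch pathway genes and the marker lists were chosen with earlier results of these data known. By rule, all members were named in each comparison, the other pathway genes where past the threshold, and the 5 genes most like each ligand gene. Dtx2 and Rbpj levels, Fos and Hspa1a were added after their values were seen. Promoter sequences are RefSeq's on GRCm38.p6.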

Additional observations from a re-analysis of the deposited data

How the results depend on the processing

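At P0 the calls of both ligand genes in Figla ovaries held under every alternative except grouping by title, and the call of Jag2 in Lhx8 ovaries held under every alternative run there, of which grouping by title was not one. By title, P0 Figla ovaries gave 0 calls (0 members), with log2 fold changes of 0.019 for Jag1, 0.33 for Heyl, 0.018 for Hey1, 0.29 for Hey2 and -0.086 for Lfng. At E18.5 it gave 1093 calls (4 members), with 0.26 for Jag2, 0.58 for Notch1, 0.65 for Notch2, 1.88 for Notch3, -1.15 for Hey1 and -2.86 for Hes1, and there the titles set all libraries of the samples 1-2 against all others. Libraries with agreeing labels gave 1835 calls at P0 and 1082 at E18.5 (4 members), where Notch1 stood at 0.57, Notch2 at 0.56, Notch3 at 1.89, Hey1 at -1.09 and Hes1 at -2.43.

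For P0 Figla ovaries, edgeR's 2767 calls became 1363 in 1 model of all Figla samples. For E18.5 Figla ovaries, 1 call became 78 with DESeq2 (1 member), 229 with no filter (1 member), 53 in 1 model, 34 with no libraries summed and 24 in the later 4 libraries only, an alternative chosen after seeing the data, as was the batch term. For Lhx8, 1582 calls became 2682 with no filter. Between ages in Figla KO ovaries, 1 call became 0 with RLE scaling, 309 with DESeq2, 530 with no filter (1 member) and 206 in the later 4. Between ages in Figla control ovaries, 0 became 1616 with DESeq2 (2 members), 1252 with no filter (2 members) and 337 in the later 4 (1 member, Notch3, adjusted p = 0.049). The Figla effect at P0 minus that at E18.5 gave 3 calls with DESeq2, 63 with no filter and 1 in the later 4, and the Figla minus the Lhx8 effect gave 150 with DESeq2 and 340 with no filter, in place of 75. The cause of these shifts was not tested.

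Leaving out 1 sample gave 1423 to 2882 calls at P0 in Figla ovaries, 0 to 89 at E18.5, 630 to 1490 in Lhx8 ovaries (1 to 3 members), 0 to 150 between ages in Figla KO ovaries, 0 to 556 in Figla control ovaries (0 to 2 members) and 41 to 106 for the Figla minus the Lhx8 effect. The 1423 came without KO replicate 3, the 89 without control replicate 3, the 630 without control replicate 2, the 150 without E18.5 KO replicate 1-2 and the 556 without E18.5 control replicate 4.

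Signs turned on leaving out 1 sample for values near 0 or resting on the samples 1-2. At P0 in Figla ovaries Notch2 ranged from -0.11 to 0.027 and Lfng from -0.16 to 0.24. At E18.5 Notch1 ranged from -0.26 to 0.15, Notch2 from -0.18 to 0.20, Notch3 from -0.47 to 0.35, Hey1 from -0.60 to 0.43 and Hes1 from -1.43 to 1.77. Lfng in Lhx8 ovaries ranged from -0.19 to 0.40. Between ages in Figla KO ovaries Jag1 ranged from -0.37 to 0.035, Notch3 from -0.23 to 0.45, Heyl from -0.15 to 0.23 and Hes1 from -2.15 to 0.51, and in Figla control ovaries Hes1 ranged from -1.02 to 0.41. The difference of the Figla effects ranged from -2.08 to 1.12 for Hes1, and the Figla minus the Lhx8 effect from -0.58 to 0.067 for Notch3. In the later 4 libraries alone, E18.5 Notch2 was 0.043, Hey1 was -0.26 and Hes1 was -0.41, the difference of the Figla effects for Hes1 was 0.10, and between ages Jag1 was 0.034, Notch3 -0.23 and Hes1 0.50 in Figla KO ovaries and Hes1 0.41 in Figla control ovaries. With the batch term E18.5 Hey1 was -0.026.

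Figla samples were numbered as deposited, and no label says whether samples of the same number belong together. The main fits treat them as unpaired, and a pairing was not tested in the Figla set. Replicate numbers in the Lhx8 library names gave no sign of pairs. Deviations of same-numbered samples correlated by -0.15, 0.05 and 0.04 over genes, and not every sample correlated best with its own number. Deviations from means of 3 samples depend on each other, so this check cannot exclude a pairing. With the replicate number as a block 931 genes were called, and Jag1 had a log2 fold change of -1.04 with an adjusted p of 0.0982. Counts from few reads limit Notch1 and Hey2 in the Lhx8 libraries, where 3 counts correspond to 0.301 to 0.362 CPM.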
